A study of Sus scrofa with 4 samples.

Results

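Prostaglandins are short-range lipid signals. Phospholipase A2 frees arachidonic acid from membranes, the cyclooxygenases PTGS1 and PTGS2 turn it into prostaglandin H2, and terminal synthases make each prostanoid from that intermediate. PTGES makes prostaglandin E2, PTGIS makes prostacyclin and PTGDS makes prostaglandin D2. HPGD starts the oxidative breakdown of prostaglandins such as prostaglandin E2, for which the lung is a main site. G-protein-coupled receptors read the signal: PTGER2 and PTGER4 raise cyclic AMP, PTGER3 mostly lowers it, and PTGFR, the receptor for prostaglandin F2-alpha, raises calcium. In lung, prostacyclin is known as a vasodilator and prostaglandin E2 as a restraint on fibroblast activation.

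These genes were examined in the lung of pigs with the genotype LGR5-H2B-GFP knock-in. Their histone-bound green fluorescent protein reports LGR5, a receptor for the Wnt-enhancing R-spondins. The cells came from 2 sorted fractions, GFP-HI and GFP-NEG, each with 2 biological replicates, and both fractions carry the knock-in. The name of the authors' table of these 4 libraries marks the pigs as adult. The sample labels share a protocol for adult and fetal lung and give no age, nor do they say whether the antibodies against EPCAM and NGFR in that protocol gated the cells. The members were 10 gene names, chosen as enzymes and receptors of the pathway. Of these, 9 were found among the 29263 genes of the count tables, and PTGDS was not analysed here. All 9 passed the filter on low counts.

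The GFP-HI libraries held 24200550 and 24689986 counts and the GFP-NEG libraries 6292253 and 7045652. By these totals alone, 1 count was worth between 0.0405 and 0.159 CPM (counts scaled to a common library total). All CPM given below were also scaled by TMM, a factor for each library (0.817 to 1.31). LGR5 stood at 146 and 152 CPM in GFP-HI and at 1.55 and 0.767 CPM in GFP-NEG. The lung label covers mixed cells. The summed CPM of 9 fibroblast markers was 86948 and 81545 in GFP-HI (replicates 1 and 2) and 25967 and 9410 in GFP-NEG, with no marker at 0, and 6 of the 9 were higher in GFP-HI past the threshold. Sums of 7 endothelial markers were 176 and 177 CPM against 1285 and 549 CPM, and 7 of 7 were lower in GFP-HI. Sums of 8 general leukocyte markers were 68.5 and 188 CPM against 1044 and 2029 CPM (8 of 8 lower), and sums of 8 macrophage and monocyte markers were 196 and 184 CPM against 991 and 883 CPM (5 of 8 lower). In such sorted bulk samples, fewer cells of a type and less RNA per cell cannot be told apart.

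PTGIS was higher in GFP-HI and HPGD was lower; the other 7 genes did not pass the test. Thus 1 of 9 was higher and 1 of 9 lower when p-values from the quasi-likelihood test of edgeR were adjusted over all 19682 genes (Benjamini-Hochberg, threshold 0.05). Of all tested genes, 8.35% were called higher and 27.6% lower. The CPM of the groups did not overlap for PTGIS, PTGER3 and PTGFR, higher in GFP-HI (3 of 9, against 27.7% of all tested genes), or for PTGS2, HPGD, PTGER2 and PTGER4, lower in GFP-HI (4 of 9, against 42.0%). Set against these backgrounds, the counts are no result about the set as a whole. The median log2 fold change was 0.08 over the 9 genes and -0.25 over all tested genes. DESeq2, which called 5.60% of its tested genes higher and 24.9% lower, called PTGIS and HPGD and no other member, as did edgeR with the replicate number as a block (8.67% higher, 24.4% lower). DESeq2 with that block called PTGIS only, where 1256 of its 19998 tested genes were higher and 3279 lower.

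**Figure D1:**
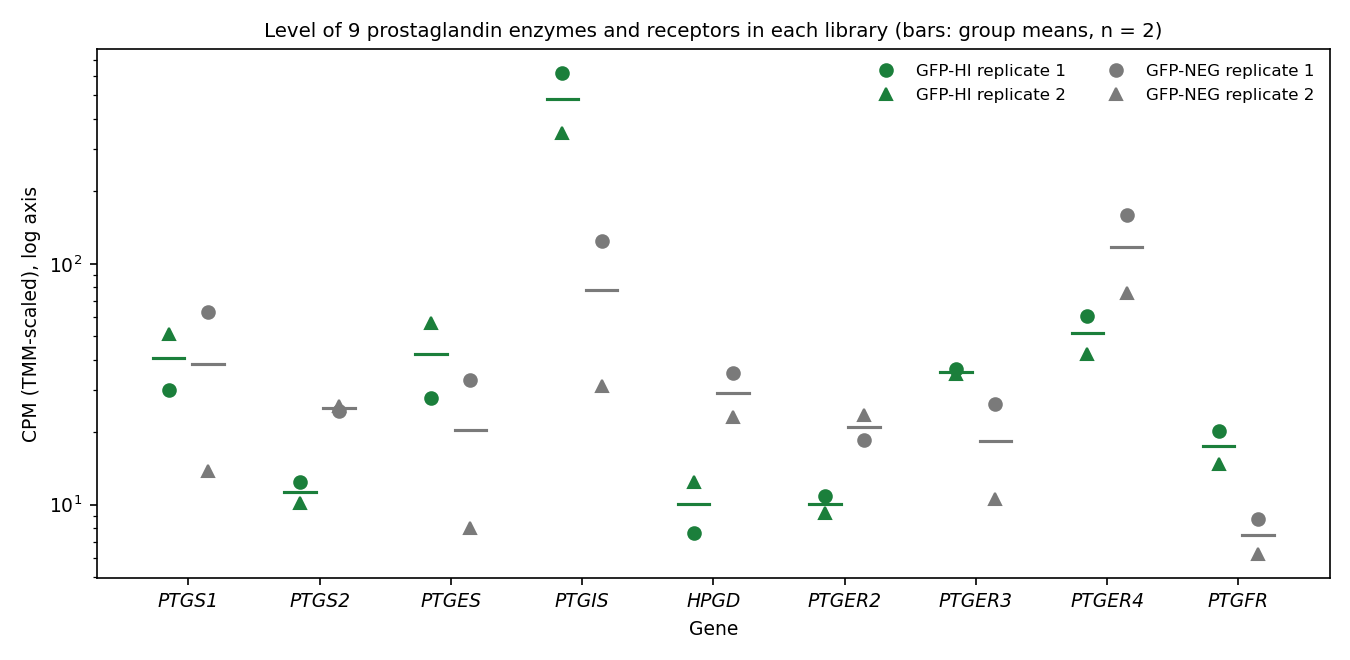
Level of each gene in each library as TMM-scaled CPM on a log axis, green for GFP-HI and grey for GFP-NEG, circles for replicate 1 and triangles for replicate 2, bars for group means of 2 libraries. PTGIS in GFP-HI (618 and 349 CPM) lies above GFP-NEG (124 and 31.1 CPM), and HPGD in GFP-HI (7.66 and 12.4 CPM) lies below GFP-NEG (35.1 and 23.0 CPM). Gene lengths were not corrected, so heights are to be compared within a gene only.

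Among the enzymes of synthesis, PTGS1, the constitutive cyclooxygenase, did not separate the fractions. Its level was 29.8 and 51.2 CPM in GFP-HI (replicates 1 and 2) and 62.9 and 13.8 CPM in GFP-NEG. The GFP-NEG libraries enclose both GFP-HI values. Its log2 fold change was 0.08 (SE 0.51, 95% interval -0.92 to 1.09, adjusted p = 0.92, edgeR), and it took the opposite sign, -0.26, when libraries were scaled by their size alone. Within replicate 1 log2 CPM in GFP-HI minus that in GFP-NEG was -1.07, and within replicate 2 it was 1.88. Without GFP-NEG replicate 1 the estimate was 1.60, without GFP-NEG replicate 2 it was -0.67, and without GFP-HI replicate 2 it was -0.32.

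PTGS2, the inducible cyclooxygenase, stood at 12.4 and 10.2 CPM in GFP-HI and at 24.5 and 25.7 CPM in GFP-NEG. Both fractions were tight between replicates and did not overlap, with GFP-NEG 2.23 times as high on average. A log2 fold change of -1.16 (SE 0.57, 95% interval -2.28 to -0.03) came with an adjusted p of 0.10 in edgeR. Scaling by library size alone gave -1.58 (adjusted p = 0.026), and upper-quartile scaling gave -1.49 (adjusted p = 0.033), since these scalings moved the median of all tested genes from -0.25 to -0.68 and -0.58. PTGS2 is an early-response gene, and 10 genes known to be induced by tissue dissociation summed to 3459 and 1934 CPM in GFP-HI against 12271 and 9447 CPM in GFP-NEG, with 7 of 10 lower and 0 higher. The part of that list, and of the leukocyte markers, in the PTGS2 values was not tested.

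PTGES, the inducible prostaglandin E synthase, stood at 27.6 and 57.0 CPM in GFP-HI and at 32.9 and 8.0 CPM in GFP-NEG. GFP-NEG replicate 1 lay above GFP-HI replicate 1, so the fractions overlapped. Its log2 fold change was 1.05 (SE 0.53, 95% interval 0.02 to 2.09, adjusted p = 0.11, edgeR), with -0.25 within replicate 1 and 2.81 within replicate 2. Both of these values lie outside the interval, which does not measure the spread between replicates of this gene. Without GFP-NEG replicate 1 it was 2.45 and passed the threshold (adjusted p = 0.011). Without GFP-NEG replicate 2 it was 0.32.

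PTGIS, the prostacyclin synthase, showed the largest difference of the 9 genes. It reached 618 and 349 CPM in GFP-HI, on 13647 and 7041 counts, and 124 and 31.1 CPM in GFP-NEG, on 801 and 284 counts. Both GFP-HI libraries lay above both GFP-NEG libraries, and the GFP-NEG libraries differed more from each other on the log scale than the GFP-HI libraries did. The group means were 484 ± 190.4 CPM and 77.7 ± 65.9 CPM (SD, n = 2 each), a ratio of 6.22. On the log2 scale this was 2.64 (SE 0.70, 95% interval 1.27 to 4.0), with an adjusted p of 8.1e-04 in edgeR, and it ranked at the 98.3 percentile of tested genes. It was higher within replicate 1, by 2.31, and within replicate 2, by 3.48. The authors' deposited table gives 2.64 as well (adjusted p = 5.8e-04). The size depended on the GFP-NEG library used: the value was 4.01 without GFP-NEG replicate 1, and 1.92 without GFP-NEG replicate 2, where it no longer passed (adjusted p = 0.24).

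Fibroblast markers moved with PTGIS. Expressed per 1000 CPM of the summed fibroblast list, PTGIS stood at 7.11 and 4.28 in GFP-HI and at 4.79 and 3.31 in GFP-NEG, so on that scale the fractions overlapped. By the same measure PTGES was at 0.318 and 0.699 in GFP-HI against 1.27 and 0.850 in GFP-NEG, and PTGS1 was at 0.343 and 0.628 against 2.42 and 1.47. For PTGER3 the values were 0.421 and 0.426 against 1.00 and 1.12, and for PTGFR 0.233 and 0.181 against 0.335 and 0.664. On this scale, each of these 4 genes was lower in both GFP-HI libraries than in either GFP-NEG library. So was every other member except PTGIS. The list sum was itself higher in both GFP-HI libraries, so a gene that rose less than the list tends to come out lower. The order is therefore no result about these genes. In each library, 3 collagen genes made up 62.4% to 89.7% of the list sum. These collagens had log2 fold changes of 1.79 to 2.16 and were not called. The other 6 markers were called, at 3.438 to 4.397. PTGIS, at 2.64, lay between, so its overlap depends on the makeup of the list. This measure was chosen after the values were seen, and the part of fibroblast content in the differences was not tested. Smooth muscle, endothelium and mesothelium are other known sites of PTGIS. Endothelial markers were lower in GFP-HI. Only 2 of 6 mesothelial markers searched (WT1 and CALB2) were found, and they summed to no more than 3.18 CPM in any library. With the others missing, mesothelial content cannot be read from this sum. The 9 smooth muscle and pericyte markers summed to 2451 and 2838 CPM in GFP-HI against 2725 and 416 CPM in GFP-NEG. ACTA2 alone gave 751 and 1706 CPM against 1617 and 187 CPM. Of the 9, 2 were called higher in GFP-HI (PDGFRB and CSPG4) and 3 lower (MYH11, DES and RGS5).

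Genes with the pattern most like PTGIS were sought by the Euclidean distance between centred log2 CPM over the 4 libraries. TSC22D1, a transcriptional regulator, was nearest (distance 0.0314), with 376 and 213 CPM in GFP-HI and 75.0 and 19.3 CPM in GFP-NEG. PTK7, a membrane protein of Wnt signalling, followed at 0.115, and PDGFRB, a growth factor receptor of mesenchymal cells, at 0.230. PDGFRB is also on the smooth muscle and pericyte list above. With 4 libraries, many genes can share such an order.

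HPGD, the dehydrogenase that inactivates prostaglandins, was the only member lower in GFP-HI past the threshold. It stood at 7.66 and 12.4 CPM in GFP-HI and at 35.1 and 23.0 CPM in GFP-NEG, with no overlap. Group means were 10.1 ± 3.38 CPM and 29.1 ± 8.53 CPM (SD, n = 2 each), a 2.89-fold difference. In the fit HPGD differed by -1.53 on the log2 scale (SE 0.57, 95% interval -2.65 to -0.41, adjusted p = 0.024, edgeR), with -2.18 within replicate 1 and -0.88 within replicate 2. In the authors' deposited table it is -1.54, with an adjusted p of 0.042. Leaving out any of the 4 libraries kept the direction (-1.85 to -1.10) but ended the call, with adjusted p between 0.066 and 0.23, and so did DESeq2 with the replicate block (-1.55, adjusted p = 0.10). Lung endothelium, epithelium and macrophages are known to make HPGD. The endothelial and macrophage sums above were higher in GFP-NEG. For epithelium, 6 alveolar type 2 markers summed to 137 and 283 CPM in GFP-HI against 451 and 189 CPM in GFP-NEG (2 lower, 0 higher). Airway markers summed to 194 and 386 CPM against 867 and 229 CPM (2 of 6 lower, 0 higher). Alveolar type 1 markers summed to 275 and 254 CPM against 384 and 77.6 CPM (0 of 5 lower, 1 higher). The part of these cells in the HPGD difference was not tested. Nearest in pattern to HPGD were TSPAN12, a tetraspanin (distance 0.131), MRC1, the macrophage mannose receptor (0.190), and C9, a complement component (0.202). C9 was near the detection limit, at 0.181 and 0.446 CPM in GFP-HI and 1.24 and 0.767 CPM in GFP-NEG, and did not pass the test (adjusted p = 0.30, edgeR).

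**Figure D2:**
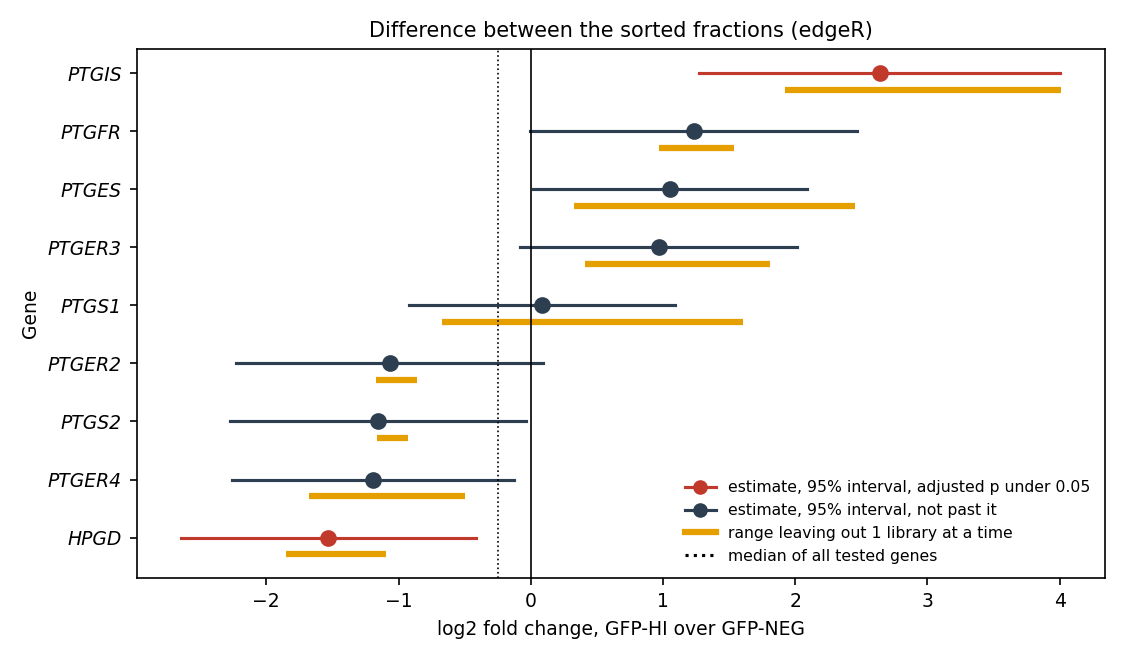
The log2 fold change of GFP-HI over GFP-NEG for each gene (points) with its 95% interval (thin lines), and below it the range over 4 fits that each left out 1 library (orange). PTGIS at 2.64 and HPGD at -1.53 are past the threshold (red), and the orange range of PTGS1, from -0.67 to 1.60, crosses 0.

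None of the 4 receptors passed the test, and their estimates pointed in opposite directions. PTGER4, which raises cyclic AMP on binding prostaglandin E2, stood at 60.8 and 42.2 CPM in GFP-HI and at 160.2 and 75.5 CPM in GFP-NEG. The ranges did not overlap, and GFP-NEG replicate 1 was the highest. The log2 fold change of -1.19 (SE 0.54, 95% interval -2.26 to -0.13) had an adjusted p of 0.074 in edgeR, and it was -0.50 without GFP-NEG replicate 1.

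PTGER2, the other cyclic AMP-raising receptor for prostaglandin E2, stood at 10.8 and 9.27 CPM in GFP-HI and at 18.6 and 23.5 CPM in GFP-NEG. Again both GFP-HI libraries were the lower ones. Its log2 fold change was -1.07 (SE 0.59, 95% interval -2.23 to 0.09, adjusted p = 0.16, edgeR). With library size alone as the scaling, PTGER4 (-1.55, adjusted p = 0.015) and PTGER2 (-1.51, adjusted p = 0.043) passed along with PTGS2 and HPGD, which made 4 of 9 lower where 29.1% of all tested genes were. With upper-quartile scaling 3 of 9 passed (28.6% of all tested genes), namely PTGS2, HPGD and PTGER4, the latter at -1.47. Leukocytes are known to carry both receptors, and the leukocyte sums above were higher in GFP-NEG; their part was not tested.

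PTGER3, the receptor that mostly lowers cyclic AMP, stood at 36.6 and 34.8 CPM in GFP-HI and at 26.1 and 10.5 CPM in GFP-NEG. The GFP-HI libraries were close together and above both GFP-NEG libraries. Its log2 fold change was 0.97 (SE 0.54, 95% interval -0.08 to 2.02, adjusted p = 0.15, edgeR), and single libraries left out gave 0.41 (without GFP-NEG replicate 2) to 1.81 (without GFP-NEG replicate 1).

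PTGFR stood at 20.3 and 14.8 CPM in GFP-HI and at 8.69 and 6.25 CPM in GFP-NEG, again without overlap. Its log2 fold change was 1.23 (SE 0.63, 95% interval -0.002 to 2.47, adjusted p = 0.12, edgeR). The difference was nearly the same within replicate 1 (1.21) and replicate 2 (1.22). As a reference for low levels, 35 genes known from other tissues such as pituitary, retina and germ cells were read. Their medians were 0 in GFP-HI and 0.155 and 0.767 CPM in GFP-NEG. The highest reached 30.4 CPM (ACTN3) and 48.1 CPM (CYP7A1) in GFP-HI, and 16.9 CPM (ACTN3) and 15.8 CPM (GDF9) in GFP-NEG. CYP7A1 was itself called higher in GFP-HI (log2 fold change 1.74, adjusted p = 0.0103, edgeR). The second-highest genes stood at 20.03 and 19.98 CPM in the GFP-HI libraries. Single genes thus set the highest level, and a member under it is not thereby undetected. PTGFR lay under that highest level in all 4 libraries. PTGS2, HPGD and PTGER2 lay under it in both GFP-HI libraries and above it in both GFP-NEG libraries. PTGS1, PTGES and PTGER3 were under it in 1 library of each fraction, PTGER4 in 1 GFP-HI library, and PTGIS in none.

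**Figure D3:**
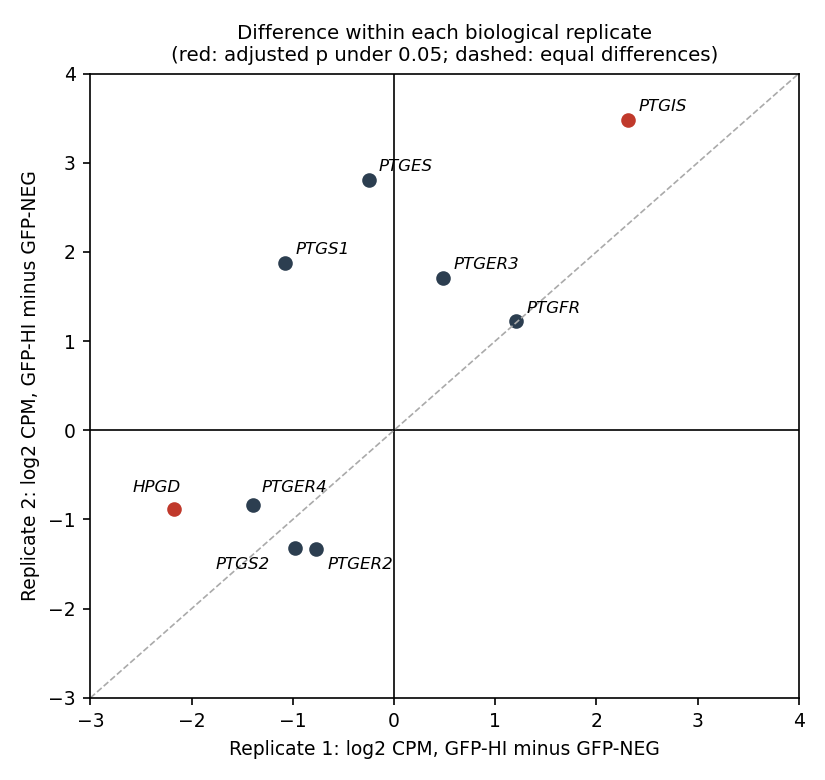
GFP-HI minus GFP-NEG in log2 CPM within replicate 1 (horizontal) and within replicate 2 (vertical), 1 point for each of the 9 genes, red where the adjusted p was under 0.05. PTGS1 (-1.07 and 1.88) and PTGES (-0.25 and 2.81) differ in sign between the replicates, and the other 7 genes share a sign.

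Ratios of raw counts of 2 genes within a library need no scaling between libraries, and gene length cancels when the same ratio is compared between fractions. The 4 ratios were chosen after the values were seen. PTGER3 was higher and PTGER4 lower in GFP-HI without overlap, so their ratio had to separate the fractions. PTGES to HPGD and PTGIS to PTGES contain the differences of HPGD and PTGIS given above. The ratios therefore restate the single genes and add no separate evidence. For PTGER3 to PTGER4 the ratio was 0.601 and 0.823 in GFP-HI against 0.163 and 0.139 in GFP-NEG, a 4.67-fold difference of geometric means without overlap. The ratio of PTGES to HPGD, synthesis against breakdown of prostaglandin E2, was 3.61 and 4.58 in GFP-HI against 0.938 and 0.348 in GFP-NEG, 7.12-fold. PTGIS to PTGES was 22.4 and 6.13 against 3.78 and 3.89. In contrast PTGS1 to PTGS2 overlapped, at 2.41 and 5.04 against 2.56 and 0.538. Two-sided exact permutation tests gave p = 0.333 for the first 3 ratios, the smallest that 2 libraries against 2 allow, and 0.667 for PTGS1 to PTGS2, so none can be called; adjustment over the 4 tests cannot lower these values.

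**Figure D4:**
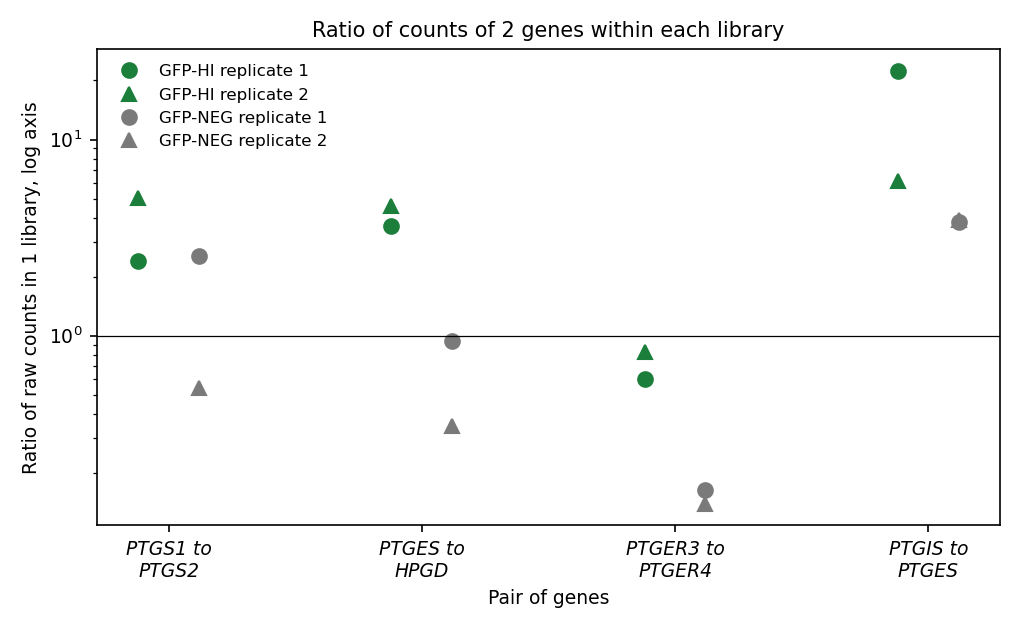
Ratio of the raw counts of 2 genes in each library on a log axis, green for GFP-HI, grey for GFP-NEG, circles for replicate 1 and triangles for replicate 2. The fractions are apart for PTGES to HPGD (3.61 and 4.58 against 0.938 and 0.348) and for PTGER3 to PTGER4, and overlap for PTGS1 to PTGS2; heights of different ratios are not comparable, because genes differ in length.

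The rest of the pathway was read from a list of 24 other prostanoid genes, of which 21 were in the tables and 18 passed the filter. Of these 18, 3 were higher and 3 lower in GFP-HI (edgeR, against the same 8.35% and 27.6%), and the median log2 fold change was -0.02. PLA2G2A and PLA2G5 had no count in any library, and PTGER1 had 3 to 13 counts per library. Upstream of the cyclooxygenases, PLA2G4A, the cytosolic phospholipase that frees arachidonic acid, stood at 95.3 and 107 CPM in GFP-HI and at 44.6 and 23.3 CPM in GFP-NEG. It rose by 1.58 on the log2 scale (SE 0.54, adjusted p = 0.012, edgeR). The call was lost with library size alone (1.19, adjusted p = 0.061) and without either GFP-HI library or GFP-NEG replicate 2 (1.15, adjusted p = 0.47).

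Among the other synthases, TBXAS1, the thromboxane synthase of platelets and macrophages, was far lower in GFP-HI. Its level was 3.90 and 2.73 CPM against 72.5 and 35.1 CPM, a log2 fold change of -4.02 (SE 0.60, adjusted p = 3.1e-09, edgeR), and the call held in each of the 13 other fits. HPGDS, the prostaglandin D synthase of mast cells, was found with 0 and 1 counts in the GFP-HI libraries, against 26 and 12 in GFP-NEG (adjusted p = 6.1e-04, edgeR, and 0.074 without GFP-HI replicate 1; it fell under the filter without GFP-NEG replicate 1). By summed counts it was 103-fold higher in GFP-NEG, with an exact 95% interval of 17.4 to 4180 that covers counting error only. Mast cell markers went the same way: the 4 found summed to 19.1 and 36.3 CPM in GFP-HI and to 202 and 231 CPM in GFP-NEG, and their part was not tested. CBR1, a carbonyl reductase that acts on prostaglandins, had no count in GFP-HI, against 7 and 12 in GFP-NEG (adjusted p = 3.9e-04, edgeR). That is at least 7.31-fold lower in GFP-HI against a floor of 3 counts per library, and the call was lost without either GFP-HI library (adjusted p = 0.12 and 0.13); genes with near-identical copies are uncertain here. PTGES2 and PTGES3, the other prostaglandin E synthases, had log2 fold changes of -0.75 and 0.19 (adjusted p = 0.61 and 0.81).

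Among breakdown and transport genes, PTGR2, a reductase that acts after HPGD, stood at 26.6 and 50.8 CPM in GFP-HI and at 14.4 and 5.48 CPM in GFP-NEG. It rose by 1.97 on the log2 scale (SE 0.56, adjusted p = 0.0022, edgeR), the opposite direction to HPGD. Without GFP-HI replicate 2 the value was 1.48 (adjusted p = 0.13), and without GFP-NEG replicate 2 it was 1.38 (adjusted p = 0.32). The related reductases PTGR1 and PTGR3 had values of 0.40 and 0.55 that did not pass. SLCO2A1, the prostaglandin uptake carrier, was at 3.44 and 8.38 CPM in GFP-HI and 19.9 and 7.34 CPM in GFP-NEG (log2 fold change -1.20, adjusted p = 0.17).

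On the receptor side, PTGFRN, a membrane protein that inhibits PTGFR, stood at 86.0 and 74.3 CPM in GFP-HI and at 25.2 and 12.1 CPM in GFP-NEG. It rose by 2.11 on the log2 scale (SE 0.54, adjusted p = 4.7e-04, edgeR), and without GFP-NEG replicate 2 the value was 1.63 (adjusted p = 0.21). The prostacyclin receptor PTGIR was at 7.93 and 2.53 CPM in GFP-HI and 13.4 and 8.44 CPM in GFP-NEG (log2 fold change -1.05, 95% interval -2.49 to 0.38, adjusted p = 0.27). The prostaglandin D2 receptor PTGDR2 was at 3.49 and 4.21 CPM against 7.92 and 16.0 CPM, at -1.64 on the log2 scale, with an adjusted p of 0.074 without and 0.049 with the replicate block in edgeR, 0.25 with the block in DESeq2, and 0.58 in edgeR without GFP-NEG replicate 2. TBXA2R, the thromboxane receptor, was at 9.42 and 7.63 CPM against 14.0 and 26.0 CPM (log2 fold change -1.23, adjusted p = 0.10). PTGDR2 and TBXA2R also passed with upper-quartile scaling and with library size alone.

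**Figure D5:**
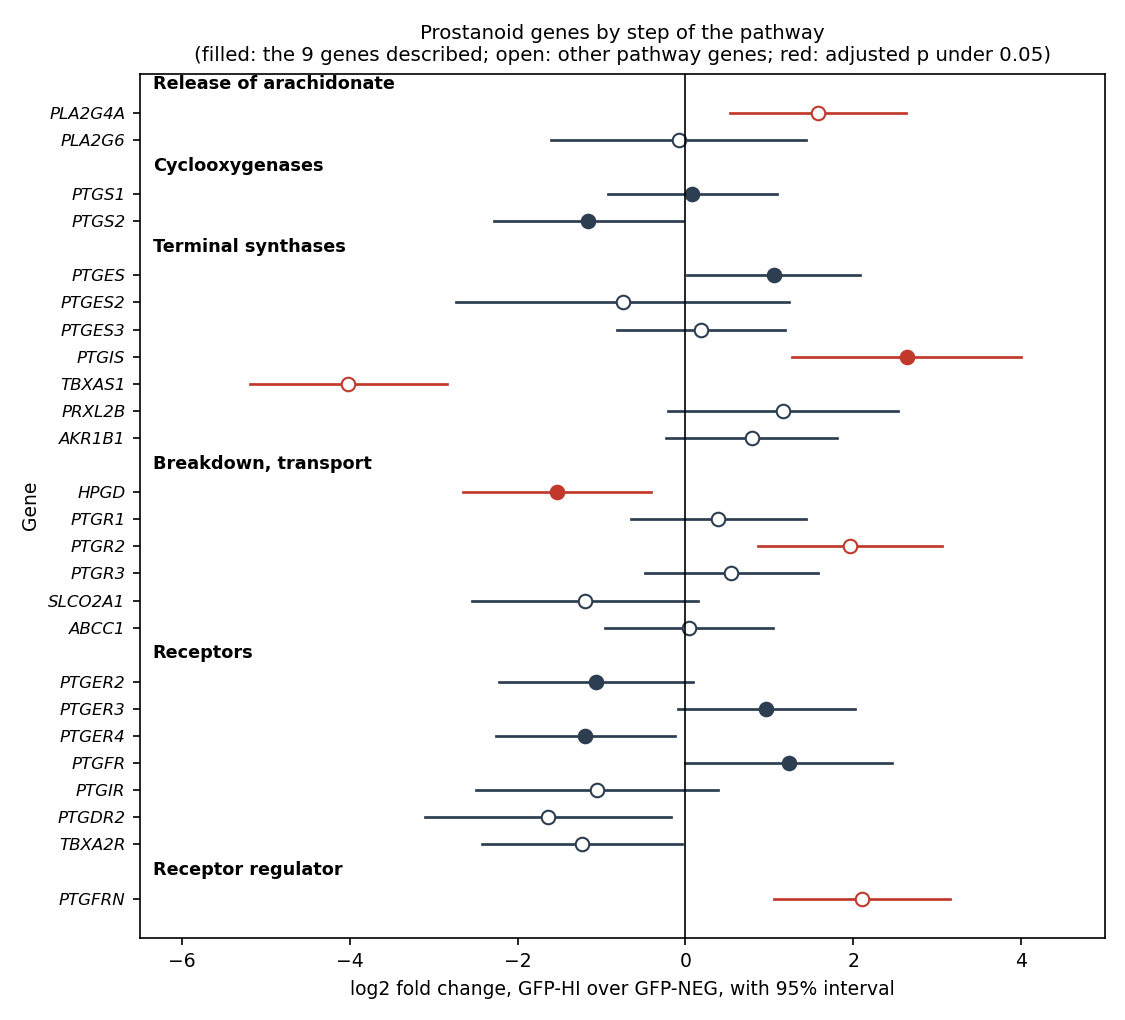
The log2 fold change of GFP-HI over GFP-NEG with its 95% interval for prostanoid genes in pathway order, filled for the 9 genes described and open for others of the list, red where the adjusted p was under 0.05. PLA2G4A (1.58), PTGIS (2.64), PTGR2 (1.97) and PTGFRN (2.11) lie to the right and TBXAS1 (-4.02) and HPGD (-1.53) to the left; HPGDS and CBR1, at 0 or 1 count in GFP-HI, are not drawn.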

How the data were processed

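The authors deposited whole-number counts per gene for 4 libraries; featureCounts, Subread 1.5.2 and DESeq2 1.37.6 are named in the submitters' processing notes, and the aligner and strand setting are not given in the sources used here. No header or label names a genome build; the comparison table's name ends in a number that reads like pig assembly and annotation releases, and no coordinates were used. Per the file headers, the authors' deposited table of 16250 genes repeats these counts (0 cells differ) and adds a mean normalized signal, the log2 fold change with its statistic (a score), and a raw and an adjusted p-value. The 4 columns of normalized values per library were not used, because 2 headings name another library than the counts they match. Of the Ensembl identifiers, 834 received a symbol from the gene name table provided, and ZADH2 was read as PTGR3.

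The test was edgeR 4.0.16 (R 4.3.3; TMM, filterByExpr, glmQLFit, group as the only term) over 19682 genes, with Benjamini-Hochberg adjustment and a threshold of 0.05. CPM are TMM-scaled. SE is the log2 fold change divided by the square root of F, and intervals are 1.96 SE to each side. Differences within a replicate are of log2 CPM with a prior count of 2. Prior degrees of freedom were infinite, so the error was set from many genes together and a gene's own scatter had no weight. The SE and intervals given for edgeR therefore do not measure the spread between replicates of that gene. On counts simulated for this comparison, 185 of 19098 genes were changed. Of changes of 2 on the log2 scale 16.5% were recovered, and of changes of 3 54.3%, with 5 false calls in 71. In the data far more genes were called (1643 higher and 5433 lower), which makes the adjustment less strict. The simulated shares therefore do not give the power in these data. A call missed here is still no sign of equal levels. The file headers number pigs as the labels number replicates, so same-numbered libraries were taken as paired, although 2 of those headings are exchanged (their deviations from group means correlated at 0.16 across genes). Alternatives were other scalings and filters, DESeq2 1.42.0, the replicate block, GFP-HI thinned to the GFP-NEG depth and each library left out. The members, all gene lists and the tests were chosen with earlier results of these data known. Named genes are the members, LGR5, the pathway list, some genes of the marker and reference lists and, for up to 3 called members, the 3 genes nearest in pattern.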

Additional observations from a re-analysis of the deposited data

How the results depend on the processing

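Of the members, PTGIS was called higher in every fit except that without GFP-NEG replicate 2, and HPGD was called lower in all fits with 4 libraries except DESeq2 with the replicate block, an alternative added after the data were seen (log2 fold change -1.55, adjusted p = 0.10, which left 0 members lower). The edgeR fit with the replicate block (PTGIS 2.90, HPGD -1.54) changed no member's call. Leaving out single libraries gave ranges of 1.92 to 4.01 for PTGIS, -1.85 to -1.10 for HPGD, 0.32 to 2.45 for PTGES and -0.67 to 1.60 for PTGS1, with 0 to 2 members called higher and 0 lower. In such fits the lone library is assumed to vary like the other group. PTGS1 also changed sign with upper-quartile scaling (-0.15), library size alone (-0.26) and GFP-HI thinned to the GFP-NEG depth (-0.067). Upper-quartile scaling called 3 members lower (with PTGS2 at -1.49 and PTGER4 at -1.47) and library size alone 4 (PTGS2 -1.58, PTGER2 -1.51, PTGER4 -1.55). Each called 5 other pathway genes lower. Of all tested genes, these scalings called 28.6% and 29.1% lower. With single libraries left out, 0 to 3 of the pathway list were higher and 1 to 2 lower. CBR1 (without either GFP-NEG library and after thinning) and HPGDS (without GFP-NEG replicate 1) fell under the filter and gave no value. Over all genes, 1083 were higher with upper-quartile scaling and 888 with library size alone, against 1643. The number lower was 3562 after thinning and 3279 under DESeq2 with the block, against 5433. Without single libraries, 216 to 1635 were higher and 1575 to 4999 lower, and the median of all genes ran from -0.59 to 0.032. With 2 libraries a group and shallower GFP-NEG libraries, estimates of members with few GFP-NEG counts, such as PTGFR (56 and 57), rest on little.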
